A study of Mus musculus with 12 samples.

Results

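Rhox5 and Zp3 are reproductive genes that were followed here through mouse B16 melanoma tumors. They were selected on measured values, the difference between tumor cells of the F4 and F0 lines on these same arrays. They are 2 of the 7894 named genes fitted, out of 8987 named genes on the array, and each was read by 1 probe (Rhox5, Entrez Gene 18617; Zp3, Entrez Gene 22788). RNA was measured on 12 single-colour Illumina arrays in 4 groups. Tumor cells (tdTomato-positive) and microenvironment cells (tdTomato-negative) were sorted from the same tumors, each replicate being a pool from 3 mice. F4 tumors gave 4 pools, A to D, and F0 tumors gave 2 pools, B2 and B3, so each fraction had 4 F4 arrays and 2 F0 arrays. Per the labels, F4 cells had acquired resistance to checkpoint inhibitors (CI, antibodies that release brakes on T cells) and their hosts were under CI, whereas F0 is tagged as having had no CI before or during the experiment. The treatment protocol in the same labels describes 3 injections of CI with Fvax, B16 cells that express Flt3 ligand, without setting F0 apart, so CI exposure of the F0 hosts is given both ways. In every group 25000 tdTomato-expressing B16 cells were injected under the skin of the flank, and tumors of 100 to 400 mm3 were collected. The labels do not say whether F4 is 1 clone, and pools are the only replicates, so the p-values measure the spread between pools.

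Rhox5, earlier called Pem, encodes a homeobox transcription factor of the X-linked reproductive homeobox cluster. It is known in Sertoli cells, epididymis and placenta, it is silenced by DNA methylation in most adult tissues, and it has been found switched on in many tumor cell lines. Zp3 encodes a glycoprotein of the zona pellucida, the coat of the egg, and takes part in sperm binding in the mouse. Its transcription in growing oocytes depends on the germline factor FIGLA, which binds E-boxes together with widely expressed partners.

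The 250 bases before each gene's RefSeq start (GRCm38.p6, plus strand, written 5′ to 3′) are shown because the chemistry and the factors tied to each gene act on such sequence. In the Rhox5 window, capitals mark CG, the site of DNA methylation, and the ETS core CCGGAA, here on the minus strand as TTCCGG. In the Zp3 window, capitals mark E-boxes, CANNTG, and TATAA.
Rhox5, chrX:37754358-37754607: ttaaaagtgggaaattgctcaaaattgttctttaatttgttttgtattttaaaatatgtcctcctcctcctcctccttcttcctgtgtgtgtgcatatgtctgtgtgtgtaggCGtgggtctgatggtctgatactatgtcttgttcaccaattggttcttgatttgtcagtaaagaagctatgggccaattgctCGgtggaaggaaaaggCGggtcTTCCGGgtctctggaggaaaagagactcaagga
Zp3, chr5:135979855-135980104: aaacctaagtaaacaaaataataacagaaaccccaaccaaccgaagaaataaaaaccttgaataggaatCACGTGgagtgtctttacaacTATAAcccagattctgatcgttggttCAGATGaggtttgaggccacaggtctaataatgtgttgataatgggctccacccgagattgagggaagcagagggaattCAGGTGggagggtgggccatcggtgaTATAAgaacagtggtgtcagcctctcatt
The Rhox5 window held 4 CG, against a median of 6 over all 32851 windows of that length in the table. Of these, 1 lies within the ETS core, whose first base was 33 bases before the start; 12% of all windows hold CCGGAA on either strand. Neither TATAA nor the GC box GGGCGG was found in the Rhox5 window. The Zp3 window held 5 CG and 3 E-boxes. The form CACGTG began 181 bases before the start, CAGATG began 134 and CAGGTG began 55 bases before it. E-boxes of this loose form occur in 66.2% of all windows, and the Rhox5 window also held 3. TATAA was found in the Zp3 window at 160 and 29 bases before the start, and 22.8% of all windows hold it. These matches were by letters on both strands and describe the windows only.

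The labelled fractions were checked against marker genes. The mean log2 intensity of 12 melanocyte markers (of 14 listed; Sox10 had no named probe) was 9.50, 10.56, 10.46 and 10.57 in F4 tumor pools A to D, against 10.31 and 10.53 in F0 tumor pools B2 and B3. In microenvironment cells it was 8.74, 8.99, 7.77 and 10.26 in F4 pools A to D, against 8.52 and 10.16 in F0 pools B2 and B3. Of these 12 markers, 6 to 11 were detected on each microenvironment array, and the signal was strongest in F4 pool D and F0 pool B3. The mean of 14 leukocyte markers (of 21 listed) was 10.14 in F4 tumor pool A and 5.81 to 7.53 in the other F4 tumor pools, against 7.23 and 5.70 in F0 tumor pools B2 and B3. In F4 tumor pool A, which stood apart from the other tumor samples, 13 of the 14 leukocyte markers and 10 of the 12 melanocyte markers were detected. In F4 microenvironment cells the leukocyte mean was 10.71 to 11.52, against 11.41 and 10.06 in F0 pools B2 and B3.

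Rhox5 was bright in F0 tumor cells and close to background in F4 tumor cells. Its raw intensity, in the scanner's linear units, was 164, 128, 136 and 115 in F4 tumor pools A, B, C and D, against 3378 and 3157 in F0 tumor pools B2 and B3. The probe was detected (detection p below 0.01) only in pool A among the F4 tumor arrays, and on both F0 tumor arrays. After background correction and quantile normalization, its log2 intensity was 7.23, 4.73, 4.88 and 4.58 in F4 tumor pools A to D, against 10.92 and 10.78 in F0 tumor pools B2 and B3. Both F0 arrays thus lay above all 4 F4 arrays, and among the F4 arrays pool A stood above the other three. The means were 5.35 ± 1.26 in F4 tumor cells (SD, n = 4) and 10.85 ± 0.10 in F0 tumor cells (SD, n = 2). The log2 difference, F4 minus F0, was -5.50 ± 0.71 (SE). Only 1 of 4 F4 tumor arrays detected Rhox5, so the fold is a bound. With undetected arrays set to their lowest detected signal, the F4 mean was 5.67 and the level was at least 36.2-fold lower in F4 tumor cells. That bound covers the detection floor only, not the spread between pools. None of the 7894 genes had a larger fitted difference between F4 and F0 tumor cells. Because this contrast chose the gene, these values are a description and were not tested. In such bulk samples, fewer cells of a type and less RNA per cell cannot be told apart. Pool A, the F4 tumor sample with detected Rhox5, was also the one with strong leukocyte and weaker melanocyte signal, and the part of these cells in its Rhox5 level was not tested. Without F4 tumor pool A the log2 difference of Rhox5 was -6.16.

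Zp3 ran the other way in the tumor cells, with signal in F4 and none detected in F0. Its raw intensity was 124, 189, 215 and 162 in F4 tumor pools A to D, against 104 and 91.6 in F0 tumor pools B2 and B3. The probe was detected on 4 of 4 F4 tumor arrays and on 0 of 2 F0 tumor arrays. Its normalized log2 intensity was 6.16, 5.90, 6.09 and 5.62 in F4 tumor pools A to D, against 4.34 and 4.32 in F0 tumor pools B2 and B3. All 4 F4 arrays lay above both F0 arrays. The means were 5.94 ± 0.25 in F4 tumor cells (SD, n = 4) and 4.33 ± 0.01 in F0 tumor cells (SD, n = 2), a log2 difference of 1.62 ± 0.22 (SE). Zp3 was not well above background in F0 tumor cells, so only a bound holds: its level was at least 1.71-fold higher in F4 tumor cells, measured against the lowest signal detected on each F0 array. In size, 36 genes had larger differences between F4 and F0 tumor cells than Zp3. Without F4 tumor pool A the Zp3 difference was 1.58. This contrast also chose Zp3, so it carries no test either.

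For scale, 7 of the 7894 genes passed an adjusted p of 0.05 between F4 and F0 tumor cells by limma with Benjamini-Hochberg adjustment, 0.0127% higher and 0.076% lower in F4. The 7 include Rhox5 and Zp3, which this contrast chose, so their calls are not a test of either gene. Groups that did not overlap were commoner: 5.43% of genes had every F4 tumor array above both F0 arrays, as Zp3 did, and 8.3% had every F4 tumor array below both, as Rhox5 did. Neither share is read as support for the members, which this contrast selected. In the authors' deposited table of processed intensities, Rhox5 stood at 151, 21.5, 26.9 and 21.5 in F4 tumor pools A to D, against 2438 and 2252 in F0 tumor pools B2 and B3. The value 21.5 is that table's lowest, shared by many probes. Zp3 stood in the authors' deposited table at 54.7, 52.9, 64.5 and 49.1 in F4 tumor pools A to D, and at the lowest value on both F0 tumor arrays.

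**Figure D1:**
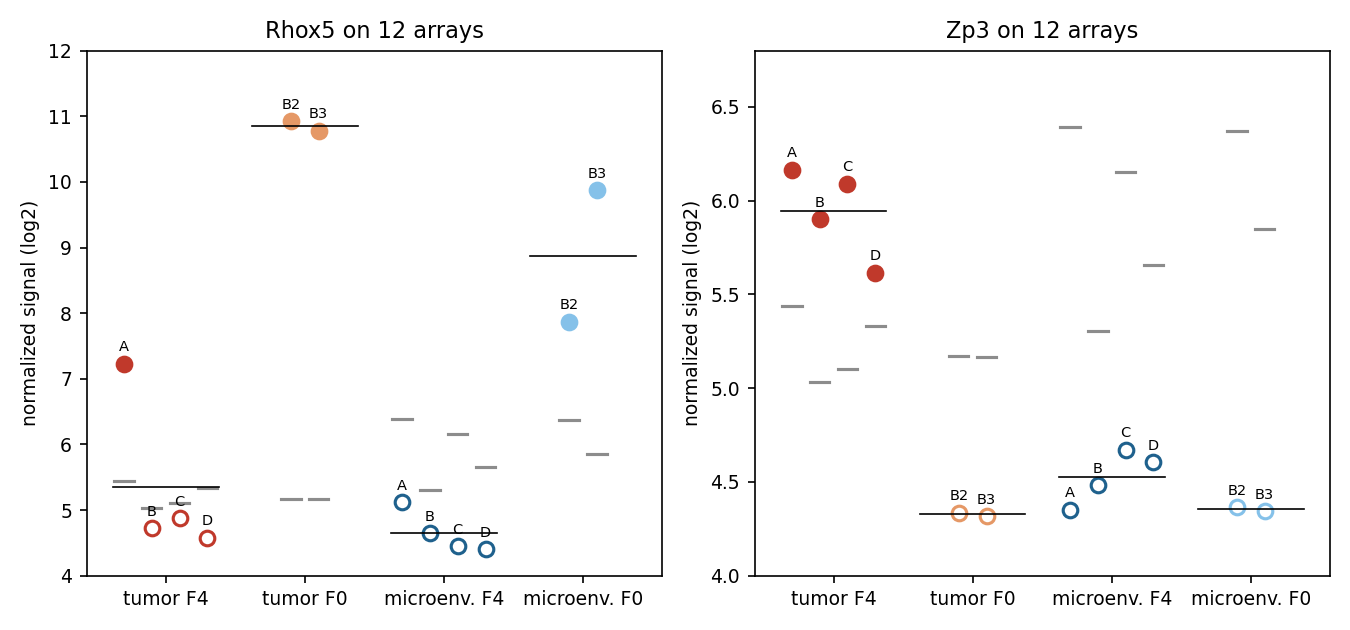
Normalized log2 intensity of Rhox5 and Zp3 on each of the 12 arrays (vertical axis), by group, with circles for pools (filled where detected), long lines for group means and short grey lines for the lowest detected signal of each array. Rhox5 sits at 10.78 to 10.92 in F0 tumor cells and at 4.40 to 5.12 in F4 microenvironment cells, while Zp3 is above 5 only in the 4 F4 tumor pools.

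The microenvironment arrays, which did not choose the genes, allowed a test of the same contrast for Rhox5. The test is not fully independent of that choice. These arrays came from the same pools as the tumor arrays and carried melanocyte signal. The SE was also fitted over both fractions together. Rhox5 had a raw intensity of 94.9, 105, 96.5 and 98.3 in F4 microenvironment pools A to D, against 146 and 450.2 in F0 microenvironment pools B2 and B3. It was detected on 0 of 4 F4 and on 2 of 2 F0 microenvironment arrays. Its normalized log2 intensity was 5.12, 4.65, 4.45 and 4.40 in F4 microenvironment pools A to D, against 7.87 and 9.87 in F0 microenvironment pools B2 and B3. The F0 arrays again lay above all F4 arrays, and pool B3 was well above pool B2. The means were 4.65 ± 0.33 in F4 (SD, n = 4) and 8.87 ± 1.42 in F0 microenvironment cells (SD, n = 2). The log2 difference was -4.22 ± 0.71 (SE; 95% interval -5.78 to -2.66). Against the lowest detected signal of the F4 arrays, the F4 level was at least 7.98-fold lower than the F0 mean. That bound covers the detection floor only, not the spread between the 2 F0 pools, and the interval reaches smaller differences.

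Rhox5 did not pass the adjusted threshold in the microenvironment. Its unadjusted p was 8.69e-05 and its adjusted p was 0.343 by limma over all 7894 genes. With the microenvironment arrays fitted alone, the SE was 0.55 and the adjusted p 0.693 by limma. No gene passed in that contrast, so 0% were called in either direction, whereas 2.44% (193 genes) had an unadjusted p under 0.05. No gene had a larger difference in size than Rhox5, and 2.9% of genes had all F4 microenvironment arrays below both F0 arrays. The call depended on which arrays entered the fit: without F4 tumor pool A the difference was -4.26 with an adjusted p of 0.0193 by limma. Without F0 microenvironment pool B3 the difference was -3.28 with an adjusted p of 0.790, and over all single arrays left out the adjusted p ran from 0.0193 to 0.790.

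Zp3 showed no detectable signal in the microenvironment of either line. Its raw intensity was 85.4, 101, 101 and 104 in F4 microenvironment pools A to D, against 84.4 and 90.1 in F0 microenvironment pools B2 and B3. It was detected on none of these 6 arrays, and the normalized log2 intensity was 4.35, 4.48, 4.67 and 4.60 in F4, against 4.36 and 4.34 in F0. The ranges overlapped, whereas 2.37% of genes had all F4 microenvironment arrays above both F0 arrays. The log2 difference was 0.17 ± 0.22 (SE; 95% interval -0.30 to 0.65). It compares undetected signals and cannot show whether Zp3 differed, so it is given without a p or a fold. In the authors' deposited table Zp3 stood at the lowest value on all of these arrays. Rhox5 stood in that deposited table at the lowest value in all F4 microenvironment pools, and at 265 and 1179 in F0 microenvironment pools B2 and B3.

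Ordered by mean level, Rhox5 was highest in F0 tumor cells and next in F0 microenvironment cells. Each of these groups had 2 arrays, so their order is a description. F4 tumor cells (1 of 4 arrays detected) and F4 microenvironment cells (0 of 4 detected) lay below both and have no order between them: with undetected arrays at their lowest detected signal the means were 5.67 and 5.88. F4 tumor pool A at 7.23 was close to F0 microenvironment pool B2 at 7.87. For Zp3, F4 tumor cells were the only group with detected signal. Their mean of 5.94 was above the lowest detected signal of the F0 tumor arrays, which averaged 5.17, but not above that of the F0 microenvironment arrays, which averaged 6.11. The other 3 groups have no order among them, and F4 tumor cells are not shown to lie above F0 microenvironment cells. The F4 minus F0 difference in tumor cells less that in the microenvironment was -1.28 ± 1.003 (SE) on the log2 scale for Rhox5. For Zp3 it was 1.44 ± 0.31 (SE). Both contain the contrast that chose the genes and are given without a test.

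Each pool supplied both fractions, so tumor and microenvironment cells of the same animals could be compared. The mean over the 6 pools was weighted to be a contrast separate from F4 against F0. It still used the tumor arrays whose values chose the genes. Its p-values for Rhox5 are therefore not independent of that choice and are not read as support. The log2 difference of Rhox5 within a pool, tumor minus microenvironment, was 2.12, 0.08, 0.43 and 0.18 log2 in F4 pools A to D, and 3.05 and 0.91 in F0 pools B2 and B3. In F4 pools B, C and D Rhox5 was undetected in both fractions, so those 3 small differences compare background signals. In the other 3 pools, A, B2 and B3, the tumor cells had the higher Rhox5 signal. Averaged over the 6 pools, the log2 difference of Rhox5, tumor minus microenvironment, was 1.13 ± 0.47 (SE), with an unadjusted p of 0.0358 and an adjusted p of 0.0689 by limma. With the pool as a random block the same 1.13 had an adjusted p of 0.0399, and with the pool as a fixed block 0.0361. Without F4 tumor pool A the Rhox5 difference was 0.708 (adjusted p 0.0822 by limma), and without F0 microenvironment pool B3 it was 1.47 (adjusted p 0.0258). Within F4 the difference was 0.70 ± 0.58 (SE) and within F0 it was 1.98 ± 0.82 (SE). As background, limma called 46.3% of genes in either direction, 28.2% of genes higher and 18.1% lower in tumor cells, and 56.3% had an unadjusted p under 0.05. The tumor cells were higher in all 6 pools for 28.7% of genes and lower in all 6 for 16.4%.

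The log2 difference of Zp3 within a pool, tumor minus microenvironment, was 1.81, 1.42, 1.42 and 1.01 in F4 pools A to D. In F0 pools B2 and B3 the difference was -0.03 in each. The 4 F4 pools were all above 0, and the F0 pools compare 2 undetected signals. Averaged over the 6 pools the difference was 0.93 ± 0.14 (SE of the fit with 4 group means), and without F4 tumor pool A it was 0.905. That SE leaves out the gap between F4 and F0 pools. The 6 pool differences had an SD of 0.79, and the SE was 0.27 with the pool as a fixed block. The mean difference is given without a p, because Zp3 was detected only on the 4 F4 tumor arrays, whose values also chose it. The 12 melanocyte markers had a median difference of 1.27, and 9 of them were called higher in tumor cells. Within F4 the difference was 1.42 ± 0.18 (SE), at least 1.05-fold against the lowest signal detected on the microenvironment arrays. In 3 of the 4 F4 pools (A, C and D) the Zp3 level of the tumor cells lay below that detection limit, so a like level in the microenvironment would not have been detected there.

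The reading of these fraction differences depended on the scaling. Over all genes the median difference, tumor minus microenvironment, was 0.21 on the log2 scale. With arrays scaled to a common median instead, it was 1.37, Rhox5 was at 1.73 and Zp3 at 0.991. The Zp3 difference was therefore above the all-gene median under quantile normalization and below it under median scaling, whereas that of Rhox5 was above it under both. All tumor arrays were on 1 chip and all microenvironment arrays on the other, and F0 arrays took the first positions of each chip. Chip and fraction, and position and line, cannot be told apart.

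Rhox5 in the F0 microenvironment was set against the melanocyte markers of the same pool. Shares are of normalized linear signal without the added offset. In pool B2 the Rhox5 signal of the microenvironment was 11.3% of that of the tumor cells, and in pool B3 it was 52.9%. Raw Rhox5 intensities, microenvironment against tumor, were 146 against 3378 in B2 and 450.2 against 3157 in B3. Those are lower shares, so the percentages depend on the normalization. Among melanocyte markers detected in both fractions, the median share was 37.8% in pool B2 (8 markers, range 10.1% to 61.5%) and 77.1% in pool B3 (11 markers, range 38.4% to 149%). The markers undetected in the microenvironment have only an upper bound and were left out, which can raise these medians. Rhox5 and the median of the markers were both higher in B3 than in B2, and 7 of the 8 markers had a larger share than Rhox5 in B2 and 10 of the 11 in B3. In F4 pools A to D the markers' median share was 62.6% (8 markers), 31.6% (10 markers), 18.4% (6 markers) and 72.8% (11 markers). F4 microenvironment pool D and F0 microenvironment pool B3 had similar melanocyte means, 10.26 and 10.16, while their Rhox5 levels were 4.40 and 9.87. Whether melanoma cells in the tdTomato-negative gate account for the Rhox5 signal was not tested. Without F4 tumor pool A, F0 microenvironment pool B3 and F4 microenvironment pool D, chosen after seeing the markers, Rhox5 differed by -3.29 in the microenvironment, F4 minus F0, with an adjusted p of 0.0247 by limma.

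**Figure D2:**
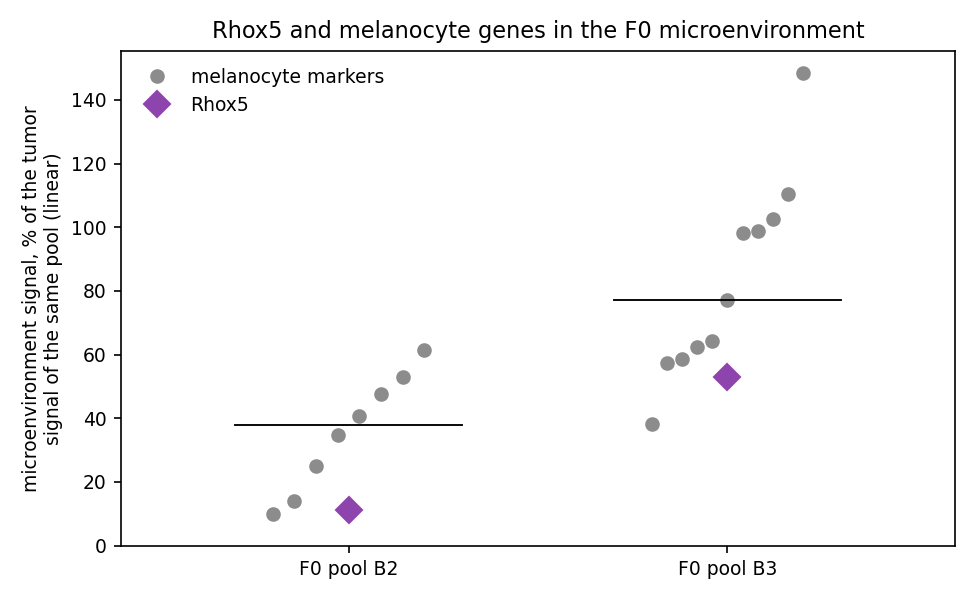
Normalized signal, without the added offset, in F0 microenvironment cells as a percentage of that in F0 tumor cells of the same pool (vertical axis, linear from 0). Diamonds are Rhox5. Circles are the melanocyte markers detected in both fractions (line at their median), 8 in pool B2 and 11 in pool B3. Rhox5 lies at 11.3% in B2 and 52.9% in B3, below the marker medians of 37.8% and 77.1%.

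The genes closest to Rhox5 and Zp3 in function were largely beyond the reach of the named probes. Of 142 other genes in 6 lists (the Rhox cluster, zona pellucida and ZP-domain genes, zona-binding sperm genes, oocyte genes, germline and cancer-testis genes, placental genes), 18 had a named probe, and 10 were detected on at least 2 arrays and fitted. None of the 10 passed between F4 and F0 in tumor cells, where 0.0887% of all genes did (Rhox5 and Zp3 included), or in the microenvironment, where 0% did. Their median log2 difference, F4 minus F0, was -0.03 in tumor cells and 0.16 in the microenvironment, against -0.02 and -0.03 over all genes. Zp1, Zp2 and Figla had no named probe, nor had any Rhox gene but Rhox5 and Rhox12. Nobox, a factor of early oocytes, had a probe that was detected on no array.

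Rhox12, the other homeobox gene of the cluster with a probe, differed by 0.07 ± 0.42 (SE) on the log2 scale in tumor cells and by 0.21 ± 0.42 in the microenvironment, F4 minus F0. The germ-cell surface protein gene Tex101 had the smallest unadjusted p of these lists: its difference in tumor cells was -1.04 ± 0.24 (SE), with an unadjusted p of 0.00116 and an adjusted p of 0.288 by limma. In that contrast 2.09% of all genes had an unadjusted p under 0.05. Tex101 was detected on both F0 tumor arrays and on none of the other 10, the F4 tumor level being at least 1.15-fold lower. Its microenvironment difference was -0.03 ± 0.24 (SE). Gdf9, an oocyte growth factor, differed by -0.51 ± 0.34 (SE) in tumor cells, and Piwil2, a germline small-RNA binding protein, by 0.77 ± 0.43. Plac8 had the largest difference of these 10 genes, 1.76 ± 1.18 (SE) in tumor cells and -0.00 in the microenvironment, and this gene is also known in leukocytes. Tgfbr3, a TGF-beta co-receptor with a ZP domain, differed by 0.96 ± 1.03 (SE) in the microenvironment and by -0.04 in tumor cells, and did not pass.

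**Figure D3:**
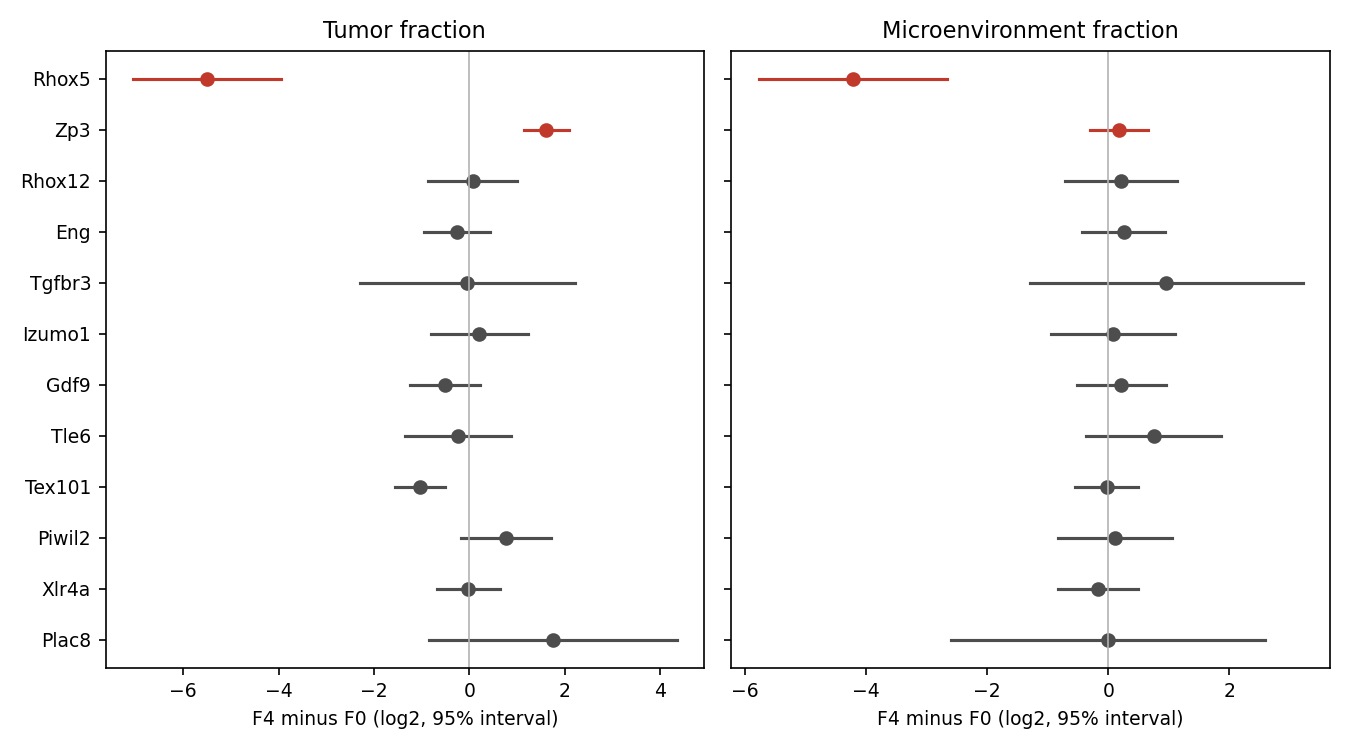
Log2 difference, F4 minus F0, with its 95% interval (horizontal axis) for Rhox5, Zp3 and the 10 other reproductive genes fitted, in tumor and microenvironment cells. Rhox5 lies at -5.50 and -4.22, Zp3 at 1.62 in tumor cells, and the 10 others range from -1.04 to 1.76 in tumor cells.

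Genes of the machinery that places or reads DNA methylation and repressive chromatin, listed because Rhox5 is known to be silenced that way, were fitted for 16 of 23. None passed between F4 and F0 in either fraction, where 0.0887% of all genes did in tumor cells and 0% in the microenvironment. At such shares no call is expected from a list of this length. Their median log2 difference was -0.13 in tumor cells and -0.15 in the microenvironment, against -0.02 and -0.03 over all genes. The maintenance methyltransferase gene Dnmt1 differed by 0.35 ± 0.20 (SE) in tumor cells and the de novo enzyme gene Dnmt3b by -0.37 ± 0.33. The histone methyltransferase genes Ehmt1 and Setdb1 differed in tumor cells by -0.72 ± 0.45 and -0.52 ± 0.47 (SE). Uhrf1, which brings DNMT1 to replicating DNA, differed by -0.68 ± 0.45 (SE) in the microenvironment. Of 12 transcription factors listed for acting on either promoter, 8 were fitted and none passed in either fraction, against the same shares of all genes. The ETS factor Elf1 differed by 0.52 ± 0.51 (SE) in tumor cells and by 0.96 ± 0.51 in the microenvironment, and Gabpa, an ETS factor known to act on the Rhox5 promoter, by 0.24 ± 0.35 and 0.46 ± 0.35. The E-box factors Tcf4 and Tcf12 differed by -0.36 ± 0.42 and -0.25 ± 0.38 (SE) in tumor cells. With 2 F0 arrays, these intervals are wide: over all genes, the 95% interval reached a median of 0.76 log2 to either side of the estimate.

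Genes next to Zp3 on the chromosome were read as well. Of the 10 annotated genes on each side in RefSeq (GRCm38.p6), 10 of 20 were fitted. None passed in either fraction, where 0.0887% of all genes did in tumor cells and 0% in the microenvironment. Their log2 differences in tumor cells, F4 minus F0, ran from -0.01 to 0.51 with a median of 0.18, and the median was -0.10 in the microenvironment. Mdh2, mitochondrial malate dehydrogenase, differed by 0.42 ± 0.33 (SE) in tumor cells and Styxl1 by 0.44 ± 0.31, each less than Zp3 at 1.62. None of the 20 genes nearest to Rhox5, mostly other Rhox genes and pseudogenes, had a named probe. The 10 nearest fitted genes, taken equally from both sides and chosen after seeing this, included Rhox12, Lamp2, Cul4b and Septin6. At 295 to 765 kb from Rhox5, these genes do not read its immediate surroundings. Their differences in tumor cells ran from -0.05 to 0.46, and none passed.

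The genes whose level followed Rhox5 most closely over the 12 arrays were Adcy2, Cbx2, Fbp2, Igfals and Efcab6, with Pearson correlations of 0.911, 0.886, 0.881, 0.868 and 0.862. All 5 were detected on both F0 tumor arrays and on no other array. The largest inverse correlations with Rhox5 were those of Slc12a8 (-0.904), Slc2a3 (-0.896), Cercam (-0.871), Hs3st1 (-0.862) and Sgpp1 (-0.838). Hs3st1, a heparan sulfate sulfotransferase gene, averaged 8.80 in F4 tumor cells and 5.58 in F0 tumor cells on the log2 scale. It averaged 7.90 in F4 and 6.61 in F0 microenvironment cells.

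Zp3 was followed most closely by Ptn, Ldhd, Kcnu1, Smoc1 and As3mt, with correlations of 0.948, 0.898, 0.896, 0.875 and 0.830 over the 12 arrays. Kcnu1 and As3mt were detected in all 4 F4 tumor pools and in neither F0 tumor pool, whereas Smoc1 was detected in all 6 tumor pools. Ptn, which encodes the growth factor pleiotrophin, averaged 5.41 in F4 tumor cells and 4.38 in F0 tumor cells, and was detected on 2 F4 tumor arrays only. The largest inverse correlations with Zp3 were weaker, from -0.813 for Abcg5 to -0.781 for Zfp553. The 12 arrays share 2 chips, 6 pools and the split into fractions, so these correlations describe likeness and carry no p.

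**Figure D4:**
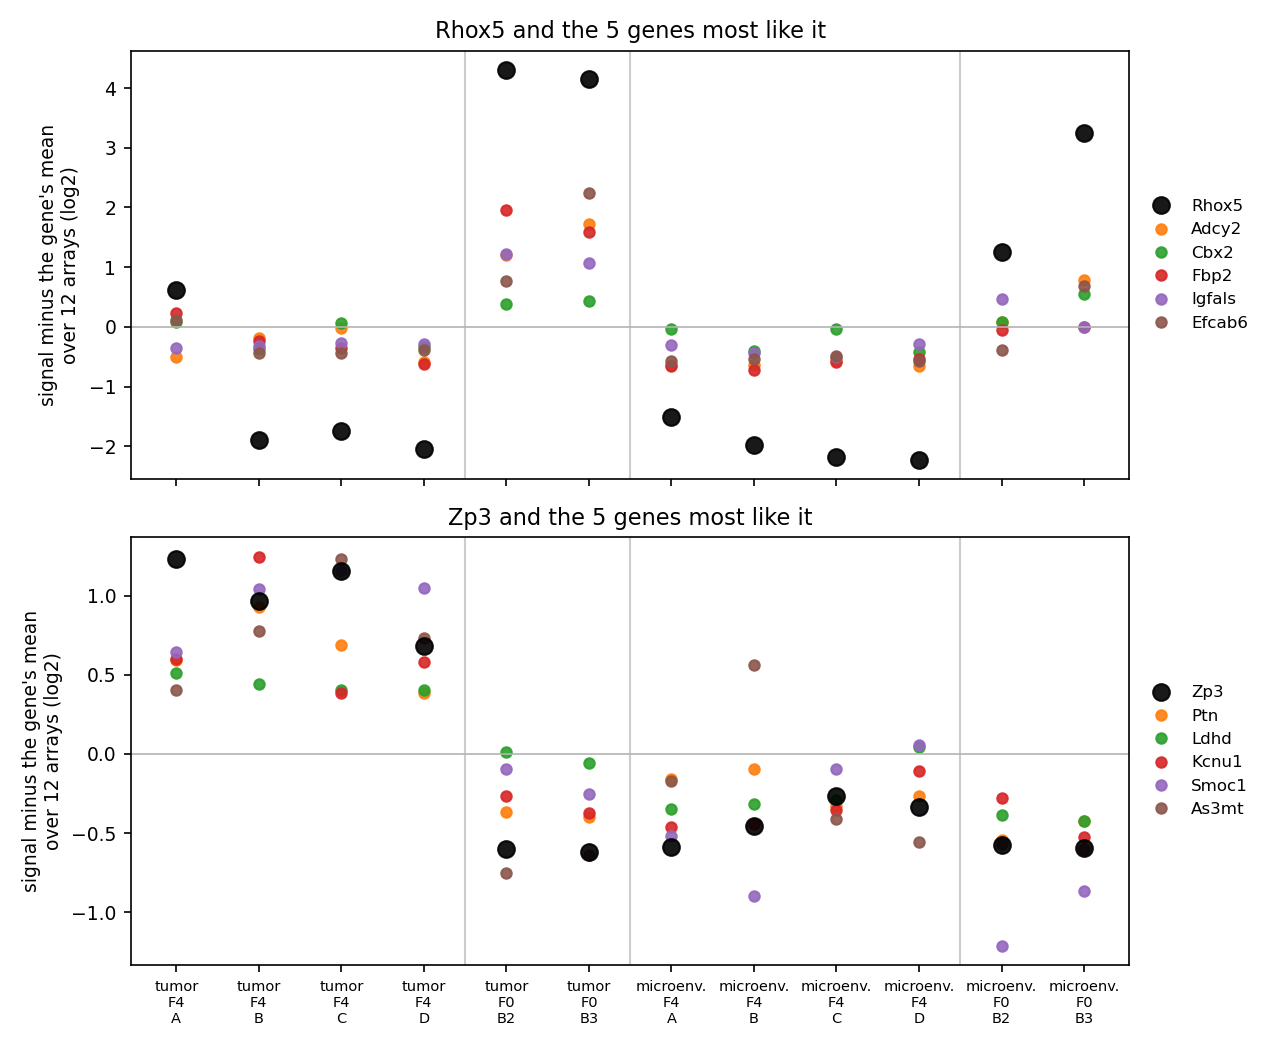
Log2 intensity minus each gene's own mean over the 12 arrays (vertical axis) for Rhox5 and Zp3 (black) and the 5 genes most alike each (colours), with arrays along the horizontal axis by fraction and line. Rhox5 and its 5 genes are high in the 2 F0 tumor arrays, and Zp3 and its 5 genes in the 4 F4 tumor arrays.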

How the data were processed

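RNA was amplified and hybridized to single-colour Illumina arrays, per the labels' protocols, and read with GenomeStudio, per the submitters' processing notes (its version is not given in the sources used here). Deposited values comprised a linear intensity, not normalized, and a detection p-value per the file headers, for 25697 probes on 12 arrays. Another deposited table, of processed intensity values whose normalization is unknown, served as an alternative.

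In R 4.3.3 with limma 3.58.1, neqc corrected background with normexp fitted from the detection p-values, added 16 and quantile-normalized the log2 intensities. A probe was kept if 2 or more arrays detected it (p below 0.01). GEO's platform annotation names 12096 probes with 1 gene symbol, none with several, and 13601 with none. Gene symbols came from it, updated through RefSeq, and the probe with the highest mean stood for a gene, which left 7894. All 12 arrays were fitted with 4 group means (lmFit, eBayes), with Benjamini-Hochberg adjustment over all genes at 0.05. A bound ("at least") sets the higher group's mean against the lowest signal of detected probes on those arrays of the other group that did not detect the gene. It covers the detection floor only and leaves out the spread between pools. Arrays carry no read depth: precision is limited by their number and by each array's brightness (mean intensity 156 to 519) and lowest detected signal (5.03 to 6.39 log2). Detected probes numbered 6808 to 10308 per array.

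The genes and the lists were chosen with earlier results of these data known. Other genes named are members of those lists with the largest differences or smallest p in either fraction, or the 5 with the highest and lowest correlation with each gene. Fractions of 1 pool come from the same mice. Their deviations from the group means correlated at 0.393 (B2 and B3), 0.113 (A), 0.107 (B), -0.07 (C) and 0.562 (D). No 2 arrays were duplicates (highest correlation 0.995). Simulated intensities with known changes were put through the same fit. Of 4-fold and 2-fold changes, 83.6% and 14.9% were recovered between F4 and F0 in tumor cells, and 79.1% and 10.4% in the microenvironment. The simulation drew independent normal noise, without shared pools, a detection floor or an outlying array. These shares need not hold for the measured genes. The simulation also planted 67, 67 and 66 genes with 2-fold, 4-fold and 16-fold changes, which eases the adjusted threshold. No gene passed in the measured microenvironment contrast. The 98.5% recovery of 16-fold changes in the simulated microenvironment is therefore not comparable with measured Rhox5. Rhox5 there, at -4.22 log2, had an adjusted p of 0.343 by limma. Alternatives covered background correction, scaling, the filter on dim probes, probe choice, array weights, fits within a fraction, the replicate block, the deposited processed values and each array left out.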

Additional observations from a re-analysis of the deposited data

Results flagged for a closer look

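In 28 genes named here, each group of 4 F4 arrays was checked for an array far from the other three, by Dixon's ratio, which chance exceeds in about 1 of 20 groups. Of 56 groups, 12 held such an array. F4 tumor pool A accounted for 8 of them and F4 microenvironment pool A for 3. Rhox5 stood at a log2 intensity of 7.23 in F4 tumor pool A, above 4.58 to 4.88 in the other F4 tumor pools. In the same pool's tumor cells Elf1 (7.98) was high, and so was Izumo1 (5.10), though undetected. Dnmt3b (7.27), Ehmt1 (7.24), Setdb1 (4.90), Tcf12 (6.61) and Gdf9 (4.73) were low there, Setdb1 and Gdf9 being undetected. Among F4 microenvironment samples, Xlr4a was high in pool A (11.13). Piwil2 (4.48) and Setdb1 (4.60) were low and undetected in pool A, and Tex101 was high in pool D (4.91) though undetected. F4 tumor pool A also had the highest leukocyte mean (10.14) and the lowest melanocyte mean (9.50) of the tumor arrays, and their part in these values was not tested. Zp3 had no such array.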

How the results depend on the processing

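No difference of Rhox5 or Zp3 reversed under any alternative run; the cause of each shift below was not tested. Between F4 and F0 tumor cells, Rhox5 was smaller in size with no background correction (-3.42). It was also smaller (-4.07) with normexp fitted without the detection p-values and an offset of 50. Zp3 there was 0.841 with that normexp fit, 0.503 without correction and 1.90 with median scaling. It was 2.04 with quantile normalization within the fraction and 1.35 in the authors' deposited table. Rhox5 in the microenvironment, F4 minus F0, passed only without F4 tumor pool A (-4.26) and without 3 arrays that stood apart by their markers (-3.29) (this set was chosen after seeing the data). Rhox5 between tumor and microenvironment cells passed with median scaling (1.73), no background correction (0.716) and array weights (0.779). It also passed with that normexp fit and offset of 50 (0.854). The difference was 1.47 without F0 microenvironment pool B3 and 0.983 without the 3 arrays. With the replicate block, random or fixed, it was 1.13 and passed (adjusted p 0.0399 and 0.0361 by limma). These passes rest in part on the tumor arrays that chose Rhox5 and are not read as support. The block changed no other call of either gene. Median scaling moved the all-gene median, F4 minus F0, to -0.257 in tumor cells and 0.140 in the microenvironment.

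The 7 genes called between F4 and F0 tumor cells became 2 with an offset of 50, 2 with no correction, 3 with detection on at least 4 arrays, 100 with array weights, 1 with tumor arrays alone, 0 with quantile normalization within the fraction and 15 without the 3 arrays. The 0 called in the microenvironment became 6 in the deposited table and 2 without the 3 arrays. The 3655 called between fractions became 6518 with median scaling, of which 92.8% were higher in tumor cells, against 60.9% with quantile normalization. With each array left out in turn, Rhox5 ran from -6.16 to -5.18 in tumor cells, -5.29 to -3.28 in the microenvironment and 0.708 to 1.47 between fractions. Zp3 ran from 1.48 to 1.68, 0.128 to 0.241 and 0.852 to 0.998. The counts ran from 0 to 10, 0 to 1 and 2139 to 4221. The tumor count was 0 without F0 tumor pool B2 or B3, F4 tumor pool B or C, or F4 microenvironment pool B. With 2 F0 pools per fraction, and dim signal for Zp3 outside F4 tumor cells, sizes of Zp3 differences depend on the background correction.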
